A study of Mus musculus with 6 samples.

Results

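The 9 genes described here encode enzymes and a channel of triglyceride formation in fat cells. They are Gpd1, Pck1 and Aqp7 for the supply of glycerol 3-phosphate and the passage of glycerol, Gpam, Gpat3 and Agpat2 for the first acylation steps, Lpin1 for the phosphatase step, and Dgat1 and Dgat2 for the last acylation. They were taken by gene symbol, as a named pathway, out of 18194 genes with a probe set of 1 symbol on the array. Of the 19 probe sets annotated to these symbols, the one with the highest mean over the 6 arrays stands for each gene, and the other 10 serve as a check.

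The cells were 3T3-L1, a mouse preadipocyte line that becomes fat cells in culture after induction with insulin, dexamethasone and isobutylmethylxanthine. Treatment began after that induction, in medium with insulin, and lasted 5 days in all 6 groups. In the first experiment the groups received ethanol at 0.1%, ritonavir (an HIV protease inhibitor) at 20 µM, or tenofovir (a nucleotide reverse transcriptase inhibitor) at 1 µM. All 3 groups of the second experiment had 20 µM ritonavir, to which DMSO at 0.1%, c9,t11-CLA at 100 µM or t10,c12-CLA at 100 µM was added. CLA is conjugated linoleic acid, and the isomers carry their conjugated cis and trans double bonds at different positions of the chain. Each group was measured on 1 Affymetrix array with RNA pooled from 4 replicate experiments of this single cell line, so no spread between replicates and no p-value can be given. DMSO is named for the control of the second experiment; the labels do not say whether the CLA groups held it too. The second experiment had no group without ritonavir, so that its comparison with ethanol crosses experiments.

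Values are log2 expression after RMA, a procedure that subtracts background, gives all arrays one distribution and combines the probes of a set. A difference of 1 on this scale is 2-fold. A gene was called detected where its value reached the median of the whole table, 6.55, on at least 1 array; this is a convention and not a detection call. All 9 genes and 12386 genes in all were detected, and 7 of the 9 reached the level on every array. Values of different genes come from different probes and are not compared with each other.

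Triglyceride is built on glycerol 3-phosphate. White fat cells have little glycerol kinase and make this backbone by reducing dihydroxyacetone phosphate, which comes from glycolysis or, through PEPCK and glyceroneogenesis, from pyruvate. Acyltransferases then add fatty acids in turn, lipin removes the phosphate, and diacylglycerol acyltransferases complete the molecule at the endoplasmic reticulum. Loss of AGPAT2 function causes congenital generalized lipodystrophy in people, and the fatty liver dystrophy mouse, which has very little fat tissue, carries a mutation of Lpin1. Many of these genes are induced as preadipocytes mature, under the control of the nuclear receptor PPARγ and of C/EBP factors.

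Promoter windows are shown for 5 of the genes because these fall into different patterns across the arrays: Pck1, Aqp7 and Lpin1 were lower than with ethanol on every ritonavir array, and Agpat2 and Gpat3 on 2 of the 4. Each window is the 250 bases before an annotated start in RefSeq, build GRCm38.p6, read 5′ to 3′ on the strand of the gene. Windows were found for 6 of the 9 genes. Capitals mark matches on either strand to any of 6 motifs. The half-site of nuclear receptors was searched as AGGTCA. The cAMP response element was searched in the form known from the Pck1 promoter, TTACGTCA, and in its consensus form, TGACGTCA. The other motifs were the E-box as CACGTG, which basic helix-loop-helix factors bind, the GC box as GGGCGG, which Sp1 binds, and the TATA box as TATAAA. No motif is contained in another of the set.
Pck1 lies on the plus strand, with its window at chr2:173152823-173153072. Aqp7 lies on the minus strand, window chr4:41048137-41048386, and has a second listed start that is not shown. Lpin1 lies on the minus strand, window chr12:16610967-16611216. Agpat2 lies on the minus strand, window chr2:26604418-26604667. Gpat3 lies on the plus strand, window chr5:100845979-100846228.
Pck1: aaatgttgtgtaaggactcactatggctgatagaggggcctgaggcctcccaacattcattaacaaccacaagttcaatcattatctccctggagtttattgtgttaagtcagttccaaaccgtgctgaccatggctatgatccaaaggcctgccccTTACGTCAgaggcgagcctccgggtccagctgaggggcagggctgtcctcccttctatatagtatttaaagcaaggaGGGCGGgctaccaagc
Aqp7: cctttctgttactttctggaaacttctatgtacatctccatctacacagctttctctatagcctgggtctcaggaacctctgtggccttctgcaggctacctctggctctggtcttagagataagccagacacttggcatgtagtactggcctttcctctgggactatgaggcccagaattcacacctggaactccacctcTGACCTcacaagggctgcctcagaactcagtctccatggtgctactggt
Lpin1: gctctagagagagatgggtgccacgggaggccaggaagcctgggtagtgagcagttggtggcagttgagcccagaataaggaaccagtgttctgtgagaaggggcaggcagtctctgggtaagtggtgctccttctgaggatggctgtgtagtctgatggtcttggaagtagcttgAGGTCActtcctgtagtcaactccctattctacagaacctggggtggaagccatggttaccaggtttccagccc
Agpat2: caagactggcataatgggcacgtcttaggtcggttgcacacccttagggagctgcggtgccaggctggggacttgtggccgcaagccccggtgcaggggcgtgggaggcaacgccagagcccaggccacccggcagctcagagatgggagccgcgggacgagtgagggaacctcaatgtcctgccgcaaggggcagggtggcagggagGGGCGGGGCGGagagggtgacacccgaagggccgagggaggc
Gpat3: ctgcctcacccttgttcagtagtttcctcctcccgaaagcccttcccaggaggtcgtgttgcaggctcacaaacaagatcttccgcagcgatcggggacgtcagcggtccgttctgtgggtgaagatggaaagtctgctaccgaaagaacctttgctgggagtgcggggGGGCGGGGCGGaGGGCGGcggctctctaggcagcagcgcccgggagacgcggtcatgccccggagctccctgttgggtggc
The Pck1 window holds the cAMP response element known from this gene, with its first base 93 bases before the start, and 1 GC box. The Aqp7 and Lpin1 windows shown each hold a single half-site, 49 and 74 bases before the start, that of Aqp7 on the opposite strand. The window of the second Aqp7 start overlaps the one shown. It holds 2 half-sites, 223 and 101 bases before that start, and the first of them is the site already marked. The Agpat2 window holds 2 GC boxes and the Gpat3 window 3, and in both an overlapping pair shares 1 base. Of all 32851 windows of the same length, 0.447% held the Pck1 element, 32.7% a GC box, and 4607 windows the half-site, so that the last 2 are common matches. The letters of the E-box, the TATA box and the consensus cAMP element were in none of the 8 windows of these genes. The windows of Gpam are not shown; 1 of them holds a half-site and a GC box. These matches describe letters and are not evidence of binding.

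**Figure D1:**
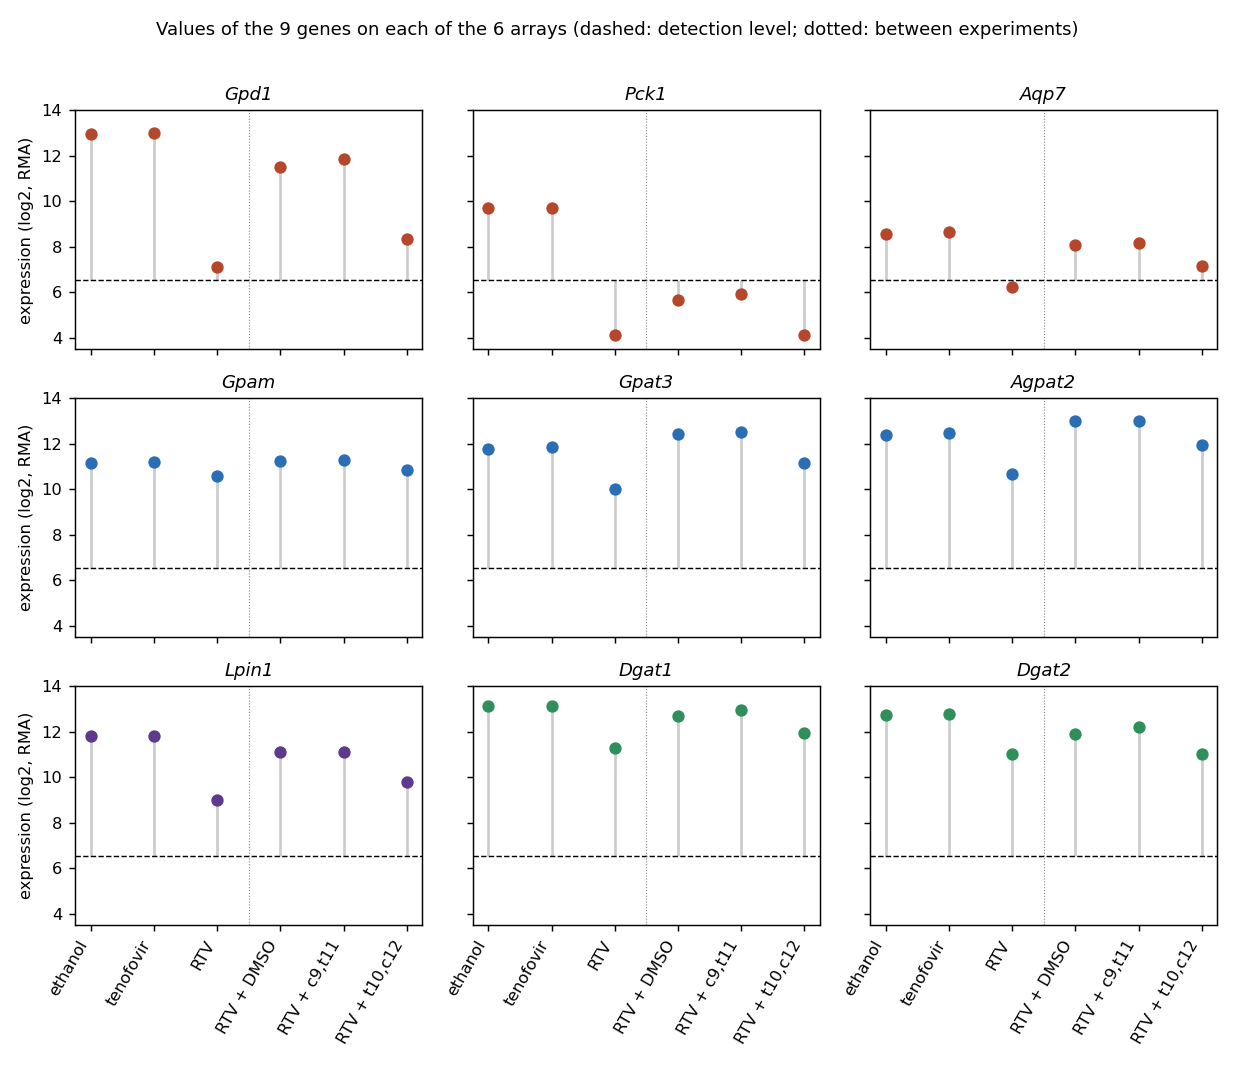
Log2 expression of each of the 9 genes (y axis) on the 6 arrays (x axis, 1 point per array; RTV is ritonavir); the dashed line is the detection level of 6.55, and colours group the genes by role. Ethanol and tenofovir lie at most 0.13 apart for each gene, the ritonavir array is the lowest for 7 genes, and Pck1 is under the level on all 4 arrays with ritonavir.

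With ritonavir, 8 of the 9 genes were at least 2-fold lower than with ethanol and 0 were higher, and all 9 lay below 0. Among all detected genes 6.39% were at least 2-fold lower, 4.56% higher and 49.8% below 0. The median difference of the 9 genes was -1.87, against 0.00 over all detected genes. Gpd1, Pck1 and Lpin1 had the lowest differences. The median over the supply genes Gpd1, Pck1 and Aqp7 was -5.57, which is the difference of Pck1 itself, and -3.17 with values under the detection level raised to that level. Of the other 10 probe sets of these genes 7 were at or above the level on 1 array or more, and with ritonavir all 7 were lower, 4 of them by at least 2-fold.

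Gpd1, the cytosolic glycerol 3-phosphate dehydrogenase that reduces dihydroxyacetone phosphate, had values (probe set 1448249_at) of 12.94 with ethanol, 13.02 with tenofovir and 7.12 with ritonavir. In the second experiment it stood at 11.50 with DMSO, 11.85 with c9,t11-CLA and 8.34 with t10,c12-CLA. The gene was thus high without ritonavir, intermediate on 2 arrays and low on the arrays of ritonavir alone and of ritonavir with t10,c12-CLA. Its level with ritonavir was 1.76% of that with ethanol, the sixth lowest of the 12386 differences. Other detected Gpd1 probe sets differed by -3.86 and -0.98, so the direction was shared and the size was not.

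Pck1 encodes cytosolic PEPCK, which turns oxaloacetate into phosphoenolpyruvate for glyceroneogenesis. Its probe set 1423439_at had 9.72 with ethanol and 9.72 with tenofovir, but 4.15 with ritonavir. With ritonavir and DMSO it was 5.67, with c9,t11-CLA 5.91 and with t10,c12-CLA 4.13. All 4 arrays with ritonavir therefore lay under the detection level, and their order is not relied on. The difference between ritonavir and ethanol was -5.57, or -3.17 when the low value was raised to the detection level. The other 2 Pck1 probe sets were under the level on all 6 arrays and give no check.

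Aqp7 encodes the aquaglyceroporin through which fat cells release glycerol. Values of its probe set 1418848_at were 8.55 with ethanol, 8.68 with tenofovir, 6.25 with ritonavir, 8.08 with DMSO, 8.19 with c9,t11-CLA and 7.15 with t10,c12-CLA. The ritonavir array alone was under the detection level for this gene. Aqp7 differed from ethanol by -2.30 with ritonavir, and a second probe set, from a class that can cross-hybridise, differed by -5.16.

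The acyltransferases of the first steps did not form one group. Gpam, the mitochondrial enzyme that acylates glycerol 3-phosphate, had the narrowest range of the 9 genes, 0.68, between 10.60 with ritonavir and 11.28 with c9,t11-CLA. The values of its probe set 1419499_at were 11.18 with ethanol, 11.19 with tenofovir, 11.25 with DMSO and 10.84 with t10,c12-CLA. The difference of -0.57 between ritonavir and ethanol did not reach 2-fold, and 12.7% of detected genes were as low or lower.

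Gpat3, the glycerol 3-phosphate acyltransferase of the endoplasmic reticulum that is prominent in mature fat cells, was measured by probe set 1454799_at, at 11.78 with ethanol, 11.88 with tenofovir and 10.02 with ritonavir. It then reached 12.41 with DMSO and 12.53 with c9,t11-CLA, and 11.15 with t10,c12-CLA. Agpat2, which acylates lysophosphatidic acid to phosphatidic acid, was measured by probe set 1428821_at, at 12.39 with ethanol, 12.46 with tenofovir and 10.69 with ritonavir. Its values in the second experiment were 13.02 with DMSO, 13.02 with c9,t11-CLA and 11.95 with t10,c12-CLA. Both genes were lower than with ethanol on the ritonavir array, by -1.77 and -1.70, and higher than with ethanol on the arrays of ritonavir with DMSO and with c9,t11-CLA. Each has 1 probe set, so no other probe set can check these values.

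Lpin1 encodes lipin 1, the phosphatidic acid phosphatase that supplies diacylglycerol and also acts as a transcriptional coregulator. Its probe set 1418288_at had 11.84 with ethanol, 11.82 with tenofovir and 9.03 with ritonavir, followed by 11.12 with DMSO, 11.13 with c9,t11-CLA and 9.79 with t10,c12-CLA. The level with ritonavir was 14.3% of that with ethanol, a difference of -2.81, and the second probe set gave -2.71.

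Dgat1 and Dgat2 encode unrelated proteins that both convert diacylglycerol to triglyceride. Dgat1 (probe set 1418295_s_at) had 13.16 with ethanol, 13.12 with tenofovir, 11.29 with ritonavir, 12.72 with DMSO, 12.97 with c9,t11-CLA and 11.96 with t10,c12-CLA. The values of Dgat2 (probe set 1422678_at) were 12.74 with ethanol, 12.78 with tenofovir, 11.04 with ritonavir, 11.93 with DMSO, 12.20 with c9,t11-CLA and 11.01 with t10,c12-CLA. Both were low on the ritonavir array, by -1.87 and -1.70 against ethanol. Dgat2 was as low with t10,c12-CLA as with ritonavir alone, while Dgat1 was not with the probe set above. A second Dgat2 probe set gave -1.99 for ritonavir against ethanol, while a second Dgat1 probe set gave -0.26. This second Dgat1 probe set was lower with t10,c12-CLA (7.63) than with ritonavir alone (7.95). The Dgat1 probe set with -1.87 carries a suffix that marks possible matches to other transcripts, so that the size of this difference depends on the choice of probe set.

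**Figure D2:**
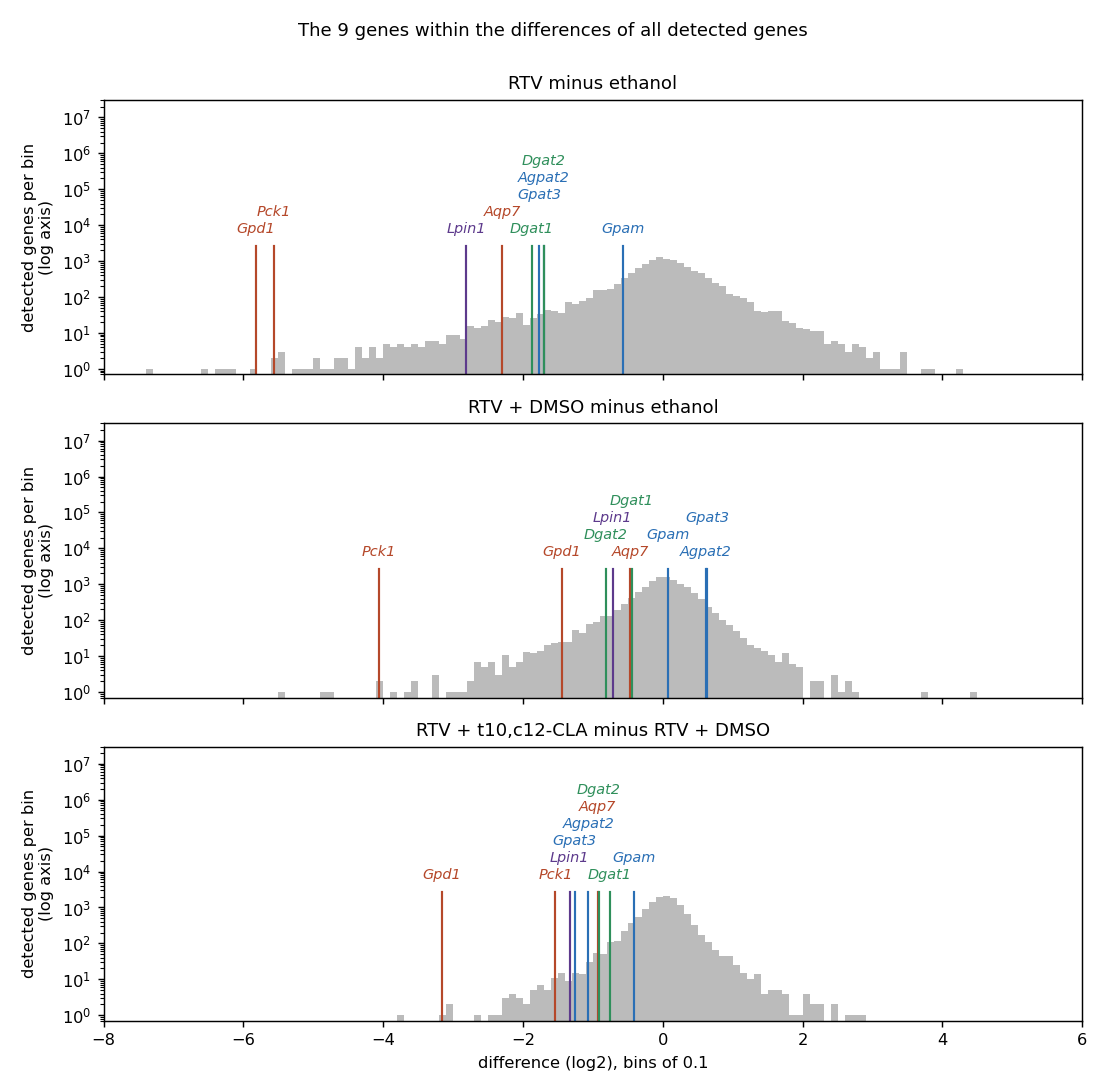
Distribution of log2 differences over the 12386 detected genes (grey bars, x axis in bins of 0.1, y axis the number of genes on a log scale) for 3 comparisons, with coloured lines at the 9 genes. With ritonavir Gpd1 and Pck1 lie at -5.83 and -5.57, far from most genes, and with t10,c12-CLA Gpd1 lies at -3.16, where 1 detected gene is lower.

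These bulk values cannot tell apart a lower share of fat cells and less RNA of these genes in each cell. Of 8 markers of mature adipocytes 6 had a named probe set, and all of these were above the detection level on every array, among them Adipoq and Fabp4. Of these 6 markers 5 were at least 2-fold lower with ritonavir than with ethanol, against 6.39% of all detected genes. Their median difference was -3.91, and their summed linear level was 90090 with ethanol and 19600 with ritonavir. It was 72680 with DMSO, 75060 with c9,t11-CLA, 40950 with t10,c12-CLA and 90620 with tenofovir. The summed level of 5 smooth muscle and myofibroblast markers was 4272 with ethanol and 25500 with ritonavir, and between 5314 and 10430 in the second experiment. Acta2 (2.54), Tagln (3.77) and Actg2 (3.49) were higher with ritonavir than with ethanol and Myh11 (-1.88) was lower, while Cnn1 was under the level on every array. That of 5 matched preadipocyte and fibroblast markers of 6 listed was 15460 with ethanol, 21090 with ritonavir and between 6013 and 7970 in the second experiment. With ritonavir Thy1 (1.67) was at least 2-fold higher than with ethanol, and Col1a1 (0.89), Dlk1 (-0.11) and Pdgfra (-0.07) were not; Cd34 was under the level on every array. The 5 macrophage markers summed to between 591.9 and 1964, with Adgre1 and Ptprc under the detection level on each array and Cd68 at 6.87 with ethanol and 8.71 with ritonavir. Csf1r and Cd14 differed by -0.19 and 0.31 with ritonavir. Of 4 endothelial markers, which summed to between 246.9 and 291.2, Pecam1, Cdh5 and Tek were under the level on every array. Kdr reached it on all 6, at 7.36 with ethanol and 7.12 with ritonavir. Of 5 hepatocyte markers 3 were matched, which summed to between 346.8 and 397.2. Alb was under the level on every array and Apoa1 reached it on 3. Ttr reached it on all 6, at 7.69 with ethanol and 7.65 with ritonavir. The part of these marker shifts in the values of the 9 genes was not tested.

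Tenofovir left the 9 genes close to their ethanol values. Differences lay between -0.04 for Dgat1 and 0.13 for Aqp7, with a median of 0.04, and 0 of 9 were 2-fold apart, as were 0% of all detected genes in either direction. For Gpd1 the difference was 0.08 and for Pck1 0.00. These are 2 single arrays, and their small distance is not an estimate of replicate spread.

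On the array of ritonavir with DMSO, 2 of the 9 genes, Pck1 and Gpd1, were at least 2-fold lower than with ethanol, where 2.99% of all detected genes were. None of the 9 was 2-fold higher (0 of 9), against 1.52% of detected genes. When each gene's probe sets were averaged the count of lower genes was 0, since Pck1 was then no longer detected and Gpd1 did not reach 2-fold. This comparison and that of ritonavir alone use the same ethanol array, and the values of each are given side by side. Pck1 differed by -4.06 here and by -5.57 with ritonavir alone, but both ritonavir values lie under the detection level, and with values raised to it the difference is -3.17 in both comparisons. Gpd1 differed by -1.44 and by -5.83.

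The other 7 genes lay nearer to ethanol. Dgat2 differed from ethanol by -0.81 on the array with DMSO, Lpin1 by -0.72, Aqp7 by -0.47 and Dgat1 by -0.44. Above 0 lay 3 of the 9 genes, against 52% of detected genes. Gpam differed by 0.08. Gpat3 and Agpat2 differed by 0.63 and 0.62, so their levels were 155% and 154% of those with ethanol. The first acylation genes thus had a median of 0.62, and the genes of glycerol 3-phosphate and glycerol supply one of -1.44; these are medians of 3 genes each.

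**Figure D3:**
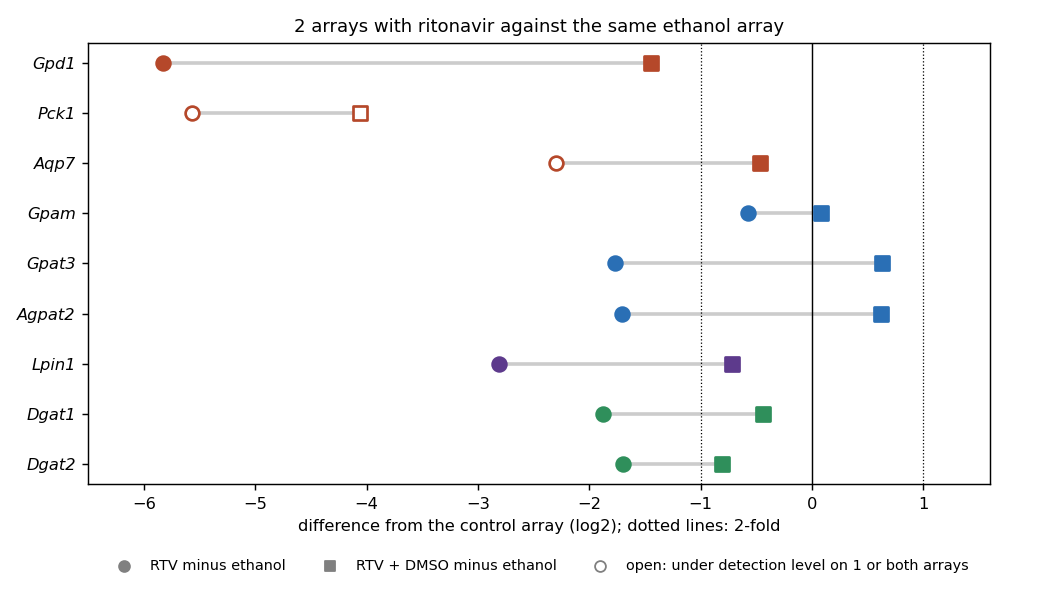
Log2 difference from the ethanol array (x axis) for the 9 genes (y axis), with circles for ritonavir and squares for ritonavir with DMSO; colours mark the roles and open symbols a value under the detection level. All 9 circles lie below 0, while the squares of Gpat3 (0.63), Agpat2 (0.62) and Gpam (0.08) lie above it and that of Pck1 stays at -4.06.

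Set directly against ritonavir alone, 7 of the 9 genes were at least 2-fold higher with ritonavir and DMSO, where 2.83% of detected genes were, and 0 of 9 were lower, where 2.07% were. All 9 were above 0 (Pck1 between values under the detection level), as were 50.9% of detected genes. Gpd1 was 20.8-fold higher, a log2 difference of 4.38, but its other detected probe sets gave 2.30 and 0.46 and the mean of its probe sets 1.78. Gpat3 was 5.27-fold and Agpat2 5.01-fold higher. Lpin1 was 4.26-fold higher and Aqp7 3.56-fold. Pck1 was 2.85-fold higher, but both of its values lay under the detection level, which leaves 6 genes when low values are raised to that level. Dgat1 was 2.70-fold higher, a log2 difference of 1.43, but its other probe set gave 0.20 and the mean of both 0.82. The count was 6 of 9 without probe sets of cross-hybridising suffixes, and 5 of 8 with the mean of probe sets. Dgat2 (0.89) and Gpam (0.65) did not reach 2-fold. DMSO and the experiment differ together between these arrays and cannot be told apart.

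The CLA isomers were compared at the same dose and time, with ritonavir throughout. This is 1 pair of compounds, and with 1 array each the difference has no error and no test. With values under the detection level raised to it, 8 of the 9 genes had c9,t11-CLA above DMSO and DMSO above t10,c12-CLA, an order that 19.9% of all detected genes had. Pck1 was under the level on these 3 arrays and has no relied order.

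With c9,t11-CLA the 9 genes lay 0.00 to 0.35 above DMSO, with a median of 0.12, while 52.3% of all detected genes lay above 0. Gpd1 had the largest difference, 0.35, and 2.02% of detected genes were as high or higher. It was followed by Dgat2 (0.28) and Dgat1 (0.26), the last enzymes of the pathway. This order depends on the probe set. Other detected Gpd1 probe sets gave 0.14 and 0.15, and the other Dgat1 probe set gave 0.12. The second probe set of Dgat2 gave 0.28 and that of Aqp7, which can cross-hybridise, 0.37. Agpat2 (0.00), Lpin1 (0.02) and Gpam (0.03) had nearly the value of DMSO. Of the 9 genes 0 were 2-fold apart, as were 0% of detected genes upward and 0.00807% downward.

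With t10,c12-CLA all 9 genes had a lower value than with DMSO (Pck1 under the detection level on both arrays), with a median of -1.07. Of these, 5 were at least 2-fold lower, against 1.05% of all detected genes, and 0 were 2-fold higher, against 0.783%. Below 0 lay 47.1% of detected genes. Gpd1 was at 11.2% of its level with DMSO, a difference of -3.16 and the second lowest of all detected genes. Its other detected probe sets differed by -1.81 and -0.09.

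Lpin1 differed by -1.33, Gpat3 by -1.26 and Agpat2 by -1.07. The Pck1 difference was -1.54 between values that both lie under the detection level; raising them to it leaves 4 genes at 2-fold. Aqp7 (-0.93), Dgat2 (-0.92) and Dgat1 (-0.76) were lower by less than 2-fold, and Gpam (-0.41) had the smallest difference. A second Gpam probe set, which reached the detection level on 1 array only, had the opposite sign (0.21). The mean of both Gpam probe sets gave -0.10. Aqp7 did pass 2-fold with its second probe set (-1.83), which can cross-hybridise, and with the mean of both (-1.38). Of the 6 matched adipocyte markers 3 were at least 2-fold lower in this comparison, against 1.05% of all detected genes, with a median of -0.96. Of the detected markers of other cell types, Cd68 (1.67) and Acta2 (1.02) were at least 2-fold higher. The macrophage markers Csf1r and Cd14 differed by 0.15 and 0.43, and Myh11 of smooth muscle by -0.98. The part of these shifts in the values of the 9 genes was not tested.

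**Figure D4:**
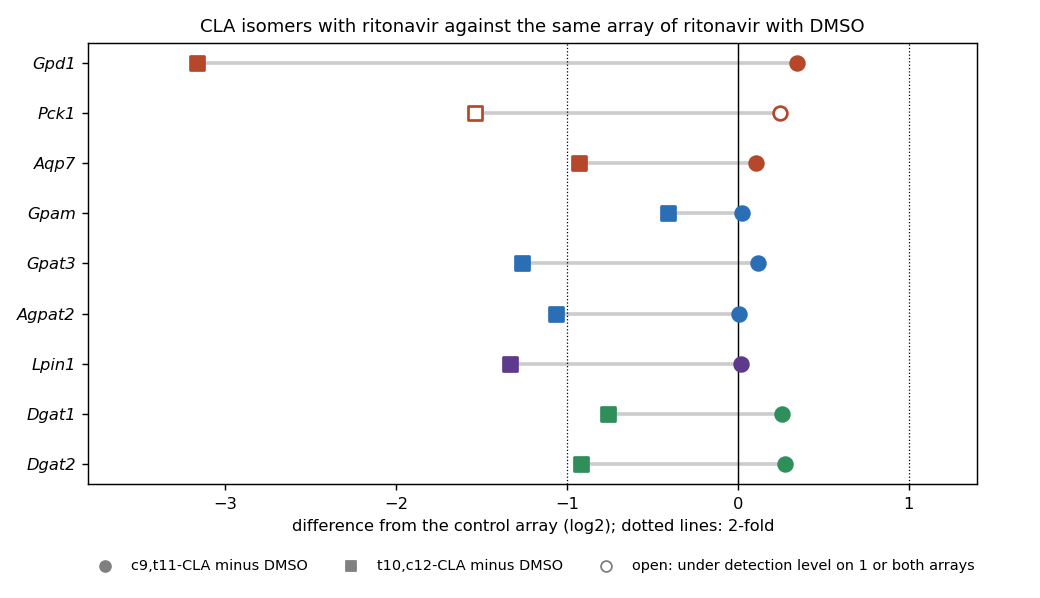
Log2 difference from the array of ritonavir with DMSO (x axis) for the 9 genes (y axis), with circles for c9,t11-CLA and squares for t10,c12-CLA, both at 100 µM; open symbols have a value under the detection level. Circles lie between 0.00 and 0.35 and squares between -3.16 (Gpd1) and -0.41 (Gpam).

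Between the isomers, 8 of the 9 genes were at least 2-fold lower with t10,c12-CLA than with c9,t11-CLA, or 7 with low values raised, where 1.53% of detected genes were. Below 0 lay all 9, Pck1 again between values under the detection level, against 48.1% of detected genes. None of the 9 (0 genes) was higher, against 0.953%. The difference was -3.51 for Gpd1, -1.38 for Gpat3, -1.35 for Lpin1 and -1.19 for Dgat2. Other detected Gpd1 probe sets gave -1.95 and -0.25, and the mean of its probe sets gave -1.49. Aqp7 (-1.04), Dgat1 (-1.01) and Agpat2 (-1.07) lay just past 2-fold, and Gpam (-0.44) did not reach it. The second Aqp7 probe set gave -2.19. Dgat1 did not reach 2-fold with its other probe set (-0.65) or with the mean of both (-0.83). The second Gpam probe set, at the level on 1 array only, gave 0.19. The count was 7 of 9 without probe sets of cross-hybridising suffixes, and 6 of 8 with the mean of probe sets.

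The level with t10,c12-CLA was close to that of ritonavir alone for Dgat2, at 11.01 and 11.04. For the other genes except Pck1, whose low values have no relied order, it lay between ritonavir alone and ritonavir with DMSO. For Dgat1 this depends on the probe set, since its other probe set was lower with t10,c12-CLA than with ritonavir alone. Gpat3 and Agpat2 with t10,c12-CLA were at 11.15 and 11.95, above 10.02 and 10.69 with ritonavir alone and under 11.78 and 12.39 with ethanol. Of the 9 genes, 6 had all 4 ritonavir arrays under both arrays without the drug, as did 22.6% of all detected genes. Gpam, Gpat3 and Agpat2 were the others. Dgat1 is among the 6 only with the probe set that can match other transcripts. Its other probe set had 8.28 with c9,t11-CLA and 8.16 with DMSO, against 8.22 with ethanol and 8.09 with tenofovir.

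Other genes of the pathway, taken from lists of related enzymes, had medians nearer to 0 than the 9 genes. The 9 genes and the lists were chosen with earlier results of these data known, so this contrast is only a description. Of 14 other genes of acylglycerol synthesis 11 were detected, with a median of -0.31 for ritonavir against ethanol. Of these 11, 1 was at least 2-fold lower and 0 were higher, against 6.39% and 4.56% of all detected genes. The 1 gene was Bscl2, which encodes seipin, a lipid droplet assembly protein that is also mutated in congenital lipodystrophy. Bscl2 had 10.17 with ethanol, 10.23 with tenofovir, 8.13 with ritonavir, 9.16 with DMSO, 9.32 with c9,t11-CLA and 7.97 with t10,c12-CLA. It differed by -2.05 with ritonavir against ethanol and by -1.19 with t10,c12-CLA against DMSO. A second Bscl2 probe set gave -1.45 and -0.59, so the 2-fold difference with t10,c12-CLA depends on the probe set. Isoenzymes such as Gpat4 (-0.29), Agpat1 (-0.07), Agpat5 (-0.46) and Lpin2 (-0.70) differed less with ritonavir, and Agpat3 reached -0.99.

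Among 10 other genes of glycerol and glycerol 3-phosphate supply 8 were detected, with a median of -0.30 for ritonavir against ethanol. With ritonavir 2 of these 8 were at least 2-fold lower and 1 was higher, against 6.39% and 4.56% of all detected genes. Pcx, the pyruvate carboxylase that feeds oxaloacetate to PEPCK, had 13.64 with ethanol, 13.58 with tenofovir, 11.73 with ritonavir, 13.34 with DMSO, 13.54 with c9,t11-CLA and 12.16 with t10,c12-CLA. It was low on the arrays of ritonavir alone and of t10,c12-CLA, where the difference from DMSO was -1.19. Other Pcx probe sets differed with ritonavir by -1.82 and -1.98, and those nearer the 5′ end by -0.50 and -0.47. Pgp, a phosphatase that can split glycerol 3-phosphate, differed by -1.65 with ritonavir and by -0.92 with ritonavir and DMSO.

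Gpd2, the mitochondrial glycerol 3-phosphate dehydrogenase that oxidises what Gpd1 makes, went the other way. Its values were 9.56 with ethanol, 9.59 with tenofovir, 10.85 with ritonavir, 10.88 with DMSO, 10.93 with c9,t11-CLA and 10.50 with t10,c12-CLA. All 4 arrays with ritonavir were higher than both without it, by 1.29 for ritonavir and 1.32 for ritonavir with DMSO against ethanol. Other Gpd2 probe sets gave 1.24 and 0.89 with ritonavir, and 1 under the detection level on every array gave -0.21. Gpd1l, a cytosolic relative of Gpd1, differed by -0.56 with ritonavir, and the mitochondrial PEPCK gene Pck2 by 0.11.

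Genes that lead phosphatidic acid and diacylglycerol to phospholipids or signalling had a median of 0.06 with ritonavir. Of 14 listed 13 were detected, 2 of them at least 2-fold lower and 0 higher, against 6.39% and 4.56% of all detected genes. Pemt, which methylates phosphatidylethanolamine to phosphatidylcholine, differed by -2.56 with ritonavir and by -1.69 with ritonavir and DMSO. Chpt1, a cholinephosphotransferase that uses diacylglycerol, differed by -1.32 with ritonavir, by 0.08 with ritonavir and DMSO, and by -1.06 with t10,c12-CLA against DMSO. Other Chpt1 probe sets gave -1.73 and -0.62 with ritonavir, and 1 had the opposite sign, at 0.51. With t10,c12-CLA each of these 3 lists had 1 gene at least 2-fold lower than with DMSO, namely Bscl2, Pcx and Chpt1, and 0 higher. Of all detected genes 1.05% were lower and 0.783% higher.

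**Figure D5:**
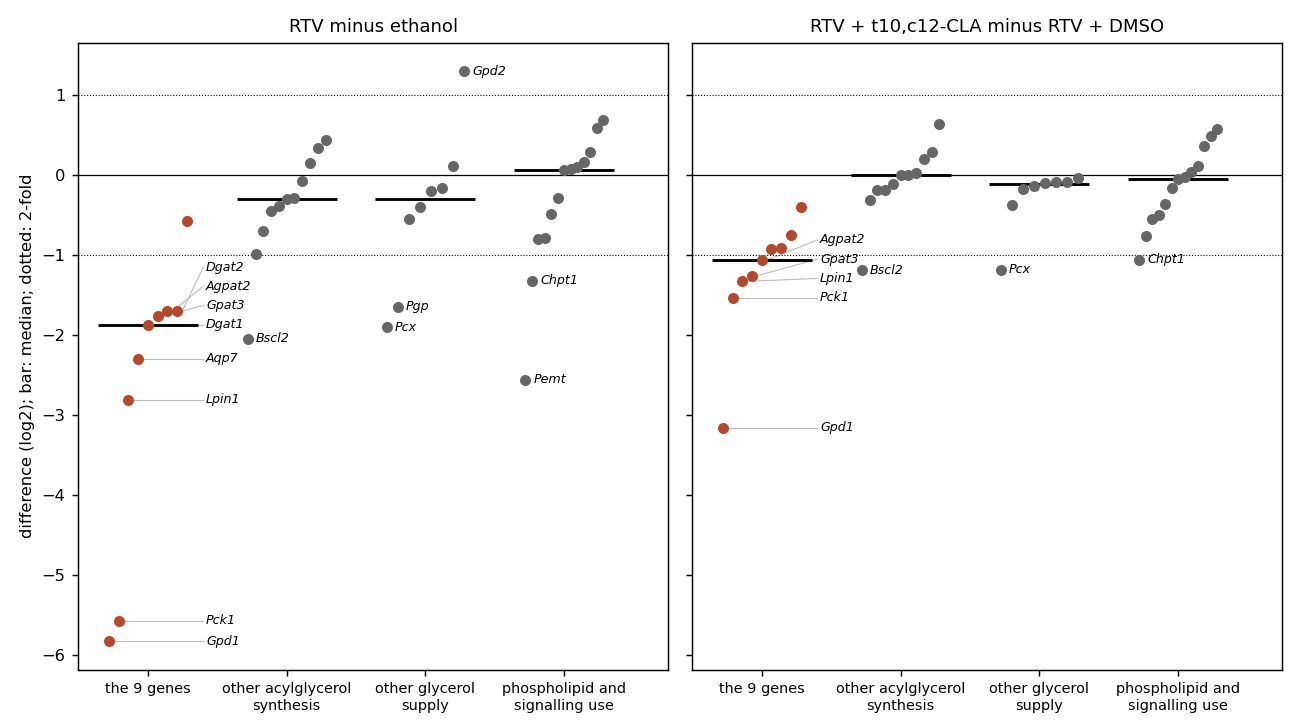
Log2 difference (y axis) of the 9 genes (red) and of the detected genes of 3 related lists (grey), 1 point per gene, for ritonavir against ethanol and for t10,c12-CLA against DMSO; bars are medians and names mark genes at least 2-fold apart. The medians with ritonavir are -1.87 for the 9 genes and -0.31, -0.30 and 0.06 for the lists, and Gpd2 lies above 0 at 1.29. Genes and lists were chosen with earlier results of these data known.

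Likeness of pattern was measured as the distance between values centred on each gene's own mean, over the 6 arrays and the detected genes. Genes with symbols of clone or accession type were skipped. The nearest gene to Gpat3 was Agpat2 (distance 0.23) and the nearest to Agpat2 was Gpat3, each out of the remaining detected genes. Both have their highest value with c9,t11-CLA, and Phkg1, a phosphorylase kinase subunit gene, came next for both at 0.48 and 0.43. Nearest to Gpd1 were Retn (0.78), the gene of the adipokine resistin, Mrap (1.26) and Car3 (1.35), and nearest to Pck1 were Inhbb (0.60), Sema3g (1.07) and Hp (1.07). The distances to Pck1 rest in part on its 4 values under the detection level.

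The nearest genes to Aqp7 were Tmem120a (0.17), Tmcc3 (0.17) and Mmd (0.19), those to Gpam Tfdp2 (0.06), Cisd1 (0.09) and Gnptab (0.10). For Lpin1 they were Itga6 (0.28), Tspan12 (0.34) and Reep6 (0.35). Dgat1 lay nearest to Pank1 (0.19), a pantothenate kinase gene of coenzyme A synthesis, Ppa1 (0.20) and Paqr4 (0.21), and Dgat2 to Rab3d (0.24), Morc4 (0.25) and Tbl2 (0.25). To the mean profile of all 9 genes the closest genes outside the 9 were Reep6 (0.24), Gdf5 (0.27), Itga6 (0.27), Apmap (0.28) and Echdc1 (0.30). A gene with a narrow range has small distances to others of its kind, so distances are compared within 1 target gene. These 6 points share arrays and normalization, and the likeness is a description.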

How the data were processed

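Total RNA of 3T3-L1 cells was pooled from 4 replicate experiments per group and hybridised to 1 array per group, as the labels describe. Log2 values of 45101 probe sets were made by the authors with RMA in Affymetrix Expression Console, per the submitters' processing notes, which state no version or settings. RMA gives the arrays one distribution, so a change common to most genes would not show; array medians lay between 6.54 and 6.56. Precision is limited by having 6 arrays.

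Probe sets were named through the platform's annotation, with symbols updated by gene identifier: 34958 carried 1 symbol, 932 with several were left out, and 9211 are unnamed here. The probe set of highest mean stood for a gene. In 7 comparisons log2 values of 2 arrays were subtracted and differences of 2-fold or more counted, with no test since each group has 1 array. Counting and the likeness measure were tested on simulated data.

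Named are all 9 genes, list genes at least 2-fold apart in a comparison (up to 6 a list), and the 3 nearest patterns to each gene and 5 to their mean; other genes named were chosen after their values were seen. Members and lists were chosen with earlier results of these data known. Alternatives were the mean of probe sets, exclusion of cross-hybridising suffixes, quantile normalization again, lowess with a span of 0.3, low values raised, other detection levels (none, or 8.77), and 1.5-fold and 3-fold thresholds. Python 3.11.15, numpy 2.4.6, pandas 2.3.3, statsmodels 0.14.6 and matplotlib 3.10.9 were used.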

Additional observations from a re-analysis of the deposited data

Results flagged for a closer look

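Gpat3 and Agpat2 had opposite directions against ethanol with ritonavir alone and with ritonavir plus DMSO. Gpat3 differed by -1.77 with ritonavir and by 0.63 with ritonavir and DMSO. Agpat2 differed by -1.70 and by 0.62. Both differences use the same ethanol array, each array stands alone, and the difference between the arrays was not tested. Experiment and vehicle differ together between these arrays and cannot be told apart.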

How the results depend on the processing

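No paired analysis was possible because each group has 1 array and no replicate number. A value was taken as moved when it changed by 0.113 or more, which is the robust SD over detected genes of tenofovir minus ethanol. With ritonavir and DMSO against ethanol, the count of genes 2-fold apart was 2, and 0 with the mean of all probe sets, where Pck1 was no longer detected; at 1.5-fold it was 6 (4 lower and 2 higher) and at 3-fold 1. With t10,c12-CLA against DMSO the count of 5 became 8 at 1.5-fold and 1 at 3-fold, and between the isomers the count of 8 became 2 at 3-fold. Shares of all detected genes were counted at 2-fold only, so the counts at 1.5-fold and 3-fold have no share beside them. With values raised to the detection level, medians moved to 1.53 for ritonavir with DMSO against ritonavir, to -0.93 for t10,c12-CLA against DMSO and to -1.07 between the isomers. Of 308 values of single genes under alternatives 269 moved by less than that spread and 4 changed sign, 0 of which were at least 2-fold; of these, Aqp7 with tenofovir changed from 0.13 to -0.08 with the mean of its probe sets and Gpam with ritonavir and DMSO from 0.08 to -0.02. Dgat1 rests on a probe set with a cross-hybridising suffix, and without such probe sets its difference with ritonavir was -0.26. Values under 6.55 have no relied order, which limits Pck1 on all 4 ritonavir arrays.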
